A study of Mus musculus with 6 samples.

Results

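The 10 epicardial and mesothelial marker genes Wt1, Tbx18, Tcf21, Bnc1, Upk3b, Upk1b, Msln, Krt19, Krt8 and Pdgfra, 10 of 27745 gene names on the array, were followed in the hearts of TG-PKR1 and wild type (WT) mice. They were taken by name, as every probe other than controls whose gene name in the scanner files was one of them, which gave 13 of 41174 probes. The 4 transcription factors were Wt1, Tbx18, Tcf21 and Bnc1. The 5 surface and keratin genes were Upk3b, Upk1b, Msln, Krt19 and Krt8, and the receptor gene was Pdgfra. Tbx18, Krt8 and Pdgfra had 2 probes each.

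The epicardium is the mesothelial sheet that covers the heart. Its cells are recognised by transcription factors inherited from the developing epicardium and by surface proteins and keratins shared with the mesothelium of other body cavities. Cells that leave the sheet lose their epithelial proteins and can become fibroblasts and vascular support cells, some of which keep Tcf21 and the receptor Pdgfra. In the adult heart the epicardium lies beside fat, fibroblasts and vessels, and its RNA is a small part of the RNA of a whole heart.

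TG-PKR1 mice (TG in the labels) overexpress the prokineticin receptor PKR1 in cardiomyocytes, under the alpha myosin heavy chain promoter, while WT mice carry no transgene. Hearts of 3 WT and 3 TG-PKR1 males at 12 weeks of age were used, 1 single-dye array per heart, and no dietary or other treatment is given for them. The study keeps its mice on a C57BL6/J background. The promoter drives the transgene in cardiomyocytes and not in the epicardium, and RNA came from whole hearts. The comparison asks whether the epicardial and mesothelial transcripts of the whole heart differ with cardiomyocyte PKR1, and whether transcription factors and surface or keratin genes differ alike. In RNA from a whole heart, fewer cells of a type and less RNA per cell cannot be told apart.

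Per array, 19650 to 24920 probes carried the extraction software's mark for a signal well above background. WT 1, TG 2 and TG 3 were scanned in the extended dynamic range mode and WT 2, WT 3 and TG 1 in a single scan, and WT 2 and TG 1 shared a slide. The Prokr1 probe, for the gene of PKR1, was well above background on 0 of 6 arrays, so it does not check the genotypes. Of 8 ventricular cardiomyocyte genes, 8 were well above background on 6 of 6 arrays. Of 7 measured adipocyte genes, 3 (Adipoq, Plin1 and Cidec) were called lower in TG-PKR1 hearts, the list median was -1.81 on the log2 scale, and Lpl differed by 0.018. These calls were lost, with all others, without WT 1, WT 3, TG 1 or TG 3, in the deposited table and with scan mode as a block. Hearts WT 1 and TG 2 stood apart for lung transcripts, WT 1 for those of the alveoli and TG 2 for those of the airways, with values beside the keratin genes. Their part in the results was not tested.

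All values are log2 median spot signals after loess normalization, and differences are TG-PKR1 minus WT. Each gene has its own probe, whose brightness depends on the probe sequence, so levels are compared between hearts and not between genes. Of the 13 probes, 10 were well above background on 6 of 6 arrays and 0 were saturated on any array. These 10 probes belonged to 9 genes, all but Bnc1. Among the 20000 probes with the highest median signal there were 11 of the 13.

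No epicardial or mesothelial marker gene passed the test between the groups. limma called 0 of the 11 probes at an adjusted p under 0.05, where 0.095% of the 20000 probes were called. At an adjusted p under 0.1 it called 0 of 11 as well, against 0.14%. At an unadjusted p under 0.05 it gave 0 of 11, against 2.38% of the 20000. Fitted over all 41174 probes, 1 of 13 passed the unadjusted threshold (Upk1b), against 2.56% of all probes, and 0% of all probes passed after adjustment. The mean was lower in TG-PKR1 hearts for 9 of 11 probes and higher for 2, where 41.8% of the 20000 were lower, and the median difference was -0.12 against 0.03 over the 20000. The TG-PKR1 and WT hearts did not overlap for 1 of the 11 probes, that of Upk1b, where 5.41% of the 20000 did not overlap. It lay lower in TG-PKR1 hearts, as 2.73% of the 20000 did, and 0 of the 11 lay higher without overlap, as 2.68% did. Over the 11 probes, the 95% confidence intervals of limma ran from a ratio of 0.555 to a ratio of 1.49 at their widest. These intervals are for signals with no background subtracted, a scale that compresses the differences of dim genes such as Bnc1 and Upk1b.

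**Figure D1:**
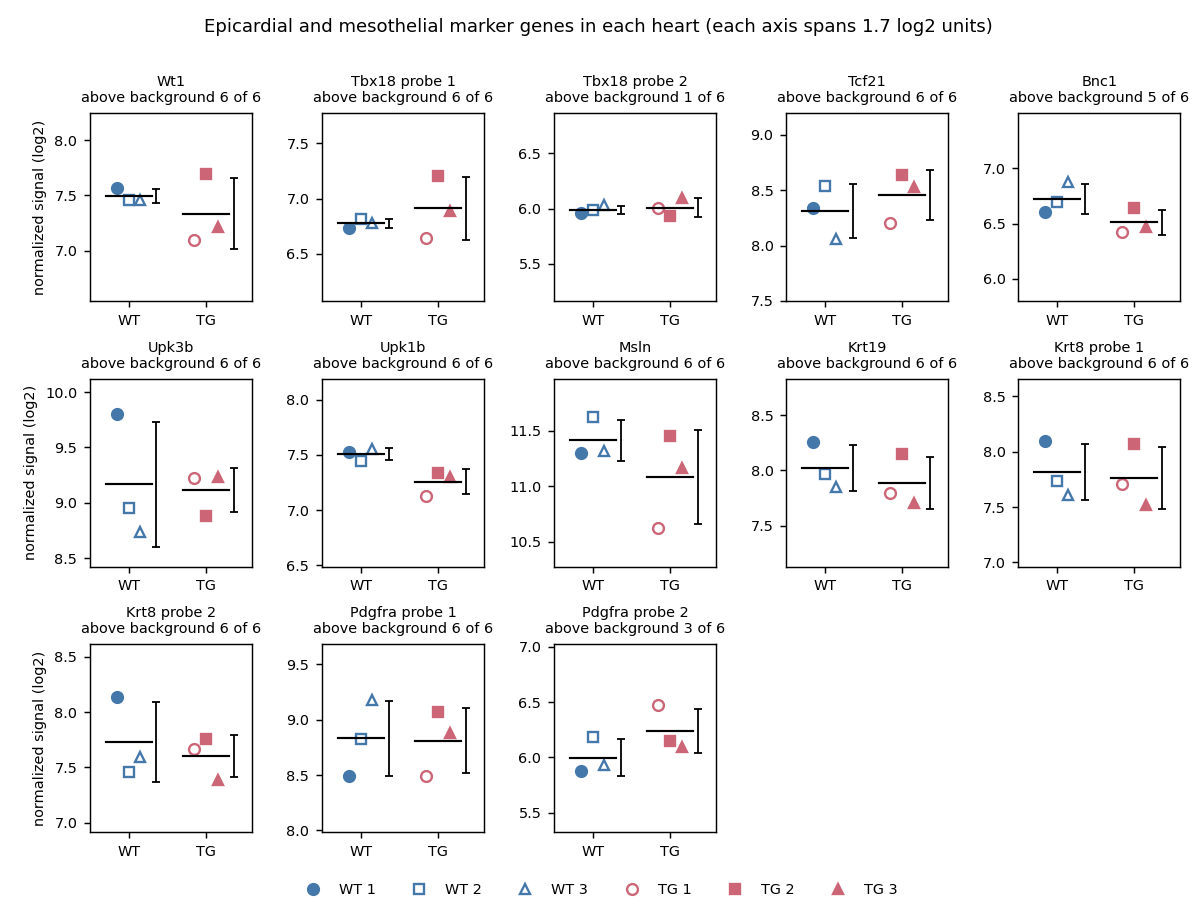
Normalized log2 signal of the 13 probes in each of the 6 hearts. Each panel is 1 probe, circles, squares and triangles are replicates 1, 2 and 3, filled symbols are arrays scanned in the extended mode and open symbols those scanned once, horizontal lines are group means and bars beside them are ± SD (n = 3). The 2 groups overlap in every panel except Upk1b, where the TG-PKR1 hearts lie between 7.13 and 7.34 and the WT hearts between 7.45 and 7.55.

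Wt1 encodes a zinc finger transcription factor of the epicardium that is also found in some adult endothelial cells and podocytes. Its probe lies on chromosome 2 of mm8 from 104974110 to 104974169 and has 10 spots per array. Signal was 7.57, 7.46 and 7.45 in WT 1, 2 and 3 and 7.09, 7.70 and 7.22 in TG 1, 2 and 3. The 3 WT hearts lay close together inside the range of the TG-PKR1 hearts, of which TG 2 was the highest of all 6 and TG 1 the lowest. The difference was -0.16 (SE 0.185, limma adjusted p = 1.0, exact permutation p = 0.5), with a 95% confidence interval from -0.58 to 0.27.

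Tbx18 is a T-box factor of the embryonic epicardium and of mural cells in the adult. Both probes lie on chromosome 9. The first, from 87502625 to 87502684, gave 6.73, 6.81 and 6.78 in WT 1, 2 and 3 and 6.64, 7.21 and 6.89 in TG 1, 2 and 3. TG 2 was the highest heart here too and TG 1 again the lowest, so the groups overlapped, and the difference of 0.14 (SE 0.175, limma adjusted p = 1.0) turned to -0.01 without TG 2. The other probe, from 87502862 to 87502921, was well above background on TG 3 alone and on 0 of 3 WT arrays. Its signals were 5.96, 5.98 and 6.03 in WT 1, 2 and 3 and 6.0, 5.93 and 6.10 in TG 1, 2 and 3. These are at the floor of the arrays, where the lowest signal well above background was 5.85 to 5.99, and the groups overlapped.

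Tcf21 encodes a basic helix-loop-helix factor that stays on in cardiac fibroblasts of epicardial origin. Its probe on chromosome 10, from 22507173 to 22507232, gave 8.34, 8.54 and 8.06 in WT 1, 2 and 3 and 8.20, 8.64 and 8.53 in TG 1, 2 and 3. The lowest heart was WT 3 and the highest TG 2, with the others mixed between them. The difference was 0.14 (SE 0.187, limma adjusted p = 1.0, exact permutation p = 0.6) and its 95% confidence interval ran from -0.28 to 0.57. Tcf21 and the first Tbx18 probe were the 2 of 11 probes with a higher mean in TG-PKR1 hearts.

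Bnc1 encodes basonuclin, a zinc finger protein of mesothelium and squamous epithelium. The probe, on chromosome 7 from 81840605 to 81840664, was well above background on 5 of 6 arrays, all but TG 1. Bnc1 signals were 6.60, 6.69 and 6.87 in WT 1, 2 and 3 and 6.43, 6.64 and 6.47 in TG 1, 2 and 3. The WT hearts were the higher on the whole, and TG 2 lay between WT 1 and WT 2. Bnc1 differed by -0.21 (SE 0.151, limma adjusted p = 1.0, exact permutation p = 0.2). It was -0.58 when the processed signal was scaled to the 75th percentile and -0.52 with that scaling alone, both short of the threshold (limma adjusted p = 1.0).

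Of the 11 probes, those of Upk3b and Msln varied most over the hearts and that of Upk1b least. Upk3b encodes a uroplakin of the urothelial plaque that is also a surface marker of mesothelium. On chromosome 5 from 136329279 to 136329338, its probe gave 9.80, 8.95 and 8.74 in WT 1, 2 and 3 and 9.22, 8.88 and 9.23 in TG 1, 2 and 3. WT 1 stood well above the other 5 hearts, and the groups overlapped. Its spread over the 6 hearts, an SD of 0.379, was above that of 86.4% of the 20000 probes. The difference was -0.05 (SE 0.272, limma adjusted p = 1.0) and became 0.27 without WT 1, 0.06 without TG 2 and 0.38 without both.

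Upk1b is the tetraspanin that pairs with Upk3b in the urothelial plaque, and it marks mesothelium as well. Its probe lies on chromosome 16 from 38693078 to 38693137. Upk1b signals were 7.53, 7.45 and 7.55 in WT 1, 2 and 3 and 7.13, 7.34 and 7.30 in TG 1, 2 and 3. All 3 TG-PKR1 hearts lay below all 3 WT hearts. The difference was -0.25 (SE 0.142, limma adjusted p = 1.0), with a 95% confidence interval from -0.58 to 0.07, and the exact permutation p of 0.1 is the smallest that 3 hearts against 3 can give. Upk1b was lower by 0.21 within the extended-range arrays, by 0.37 within the single-scan arrays and by 0.32 in TG 1 than in WT 2 on their shared slide. With no overlap between the groups, these signs were fixed in advance. WT 2 and TG 1 are also among the single-scan arrays, so the values are not separate. Before adjustment, the limma p was 0.112 among the 20000 and 0.0157 over all probes. Scaling the processed signal to the 75th percentile gave -0.49 (limma adjusted p = 1.0).

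Msln encodes mesothelin, a glycoprotein anchored on the surface of mesothelial cells. Its probe on chromosome 17, from 25476224 to 25476283, gave 11.30, 11.62 and 11.32 in WT 1, 2 and 3 and 10.62, 11.45 and 11.17 in TG 1, 2 and 3. TG 1 stood below the other 5 hearts, and TG 2 lay among the WT hearts. The difference of -0.33 (SE 0.226, limma adjusted p = 1.0, exact permutation p = 0.4) was the most negative of the 13 probes. It was 0.01 within the extended-range arrays and -0.85 within the single-scan arrays, which hold TG 1, and -0.10 without TG 1.

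**Figure D2:**
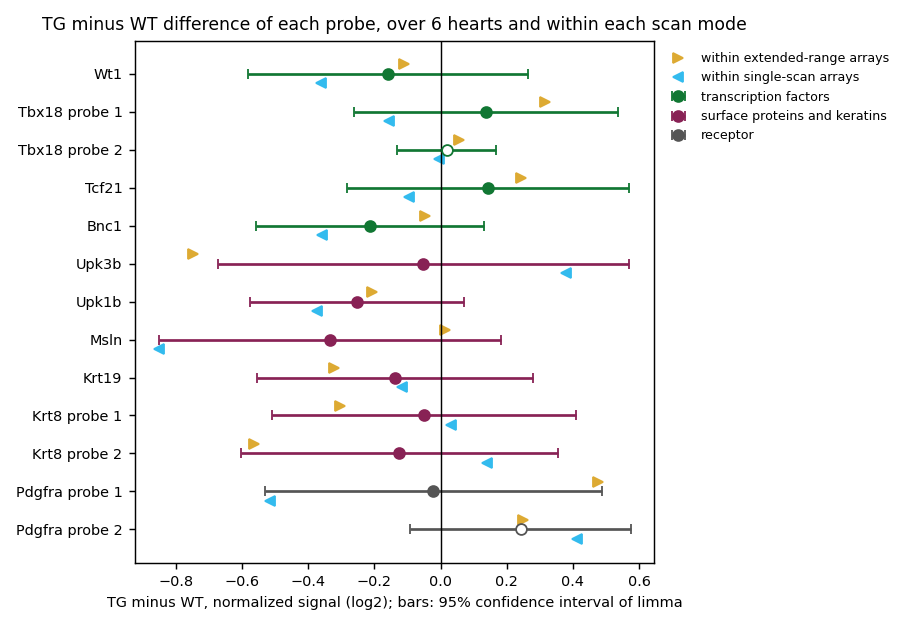
TG-PKR1 minus WT difference of each probe on the log2 scale, with 95% confidence intervals of limma over the 6 hearts (circles, open where the probe was not among the 20000) and the differences within the extended-range arrays (1 WT and 2 TG-PKR1 hearts) and the single-scan arrays (2 WT and 1 TG-PKR1) as triangles. Every interval crosses 0, and the triangles of Upk3b, Msln and the first Pdgfra probe lie far apart, at -0.75 and 0.38, 0.01 and -0.85, and 0.48 and -0.51.

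Krt19 encodes an intermediate filament protein of simple epithelia, mesothelium included. Its probe lies on chromosome 11 from 99957168 to 99957227 and gave 8.25, 7.97 and 7.85 in WT 1, 2 and 3 and 7.79, 8.15 and 7.71 in TG 1, 2 and 3. WT 1 and TG 2 were the highest hearts, 1 from each group. The difference was -0.14 (SE 0.182, limma adjusted p = 1.0, exact permutation p = 0.5).

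Krt8 is a keratin of the same epithelia and forms filaments with Krt18. Its probes on chromosome 15 lie from 101824949 to 101825008 and from 101824817 to 101824876. The first gave 8.10, 7.74 and 7.61 in WT 1, 2 and 3 and 7.71, 8.07 and 7.52 in TG 1, 2 and 3. The other gave 8.14, 7.45 and 7.60 in WT 1, 2 and 3 and 7.67, 7.76 and 7.39 in TG 1, 2 and 3. On both probes WT 1 was the highest heart, TG 2 the next and TG 3 the lowest, and the groups overlapped. The differences were -0.05 (SE 0.201) and -0.12 (SE 0.210), both with a limma adjusted p of 1.0. Both turned positive without WT 1, at 0.09 and 0.08.

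The 2 hearts with the highest Krt8 and Krt19 signals were the 2 that carried lung transcripts. Lung epithelium also expresses Krt8 and Krt19. Of 8 genes of alveolar epithelium, 7 were highest in WT 1. Sftpc, a surfactant protein of alveolar type 2 cells, was 10.77 in WT 1 and 5.83 to 6.0 in the other 5 hearts, and was well above background in WT 1 alone. The summed signal of the 8 alveolar genes was 2568 in WT 1, against 527 to 632 in the others. Sftpc was by far the brightest of the 8 in WT 1, with Aqp5 next at 7.34. Of 8 genes of airway epithelium, 8 were highest in TG 2, including Scgb1a1, the secretoglobin of club cells, at 8.92 against 6.15 to 6.43 in the others. Bpifa1 (Plunc in the files), a secreted protein of the upper airway, was 10.24 in TG 2 and 5.69 to 5.74 elsewhere. The summed airway signal was 7591 in TG 2 and 703 to 928 in the other hearts. Sftpb and Cldn18 of the alveolar genes, Foxj1 of the airway genes, and the general epithelial gene Epcam were well above background on 0 of 6 arrays. The counts of 7 and 8 above include Cldn18 and Foxj1. They also include Ager, for which WT 1 led WT 2 by only 0.009. These lists were written after the values of the hearts had been seen, and the part of lung tissue in the keratin signals was not tested.

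**Figure D3:**
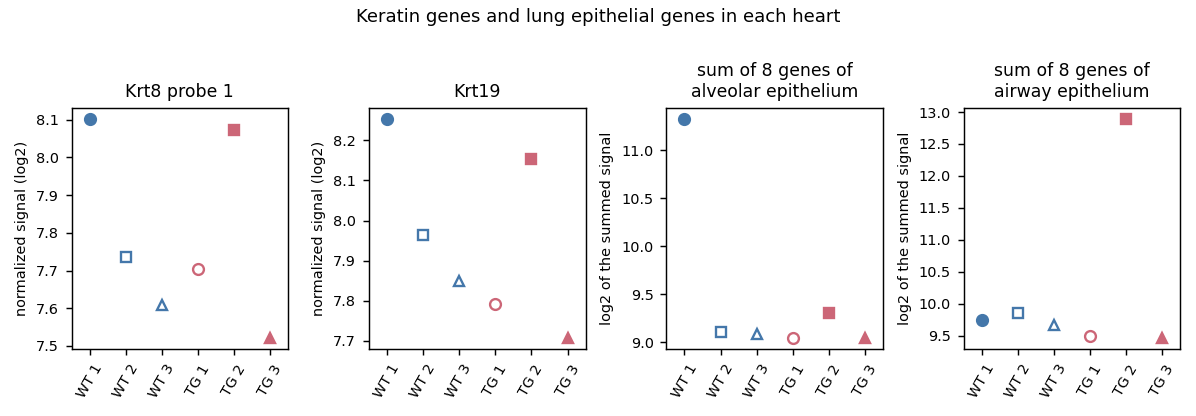
Log2 signal of Krt8 (first probe) and Krt19, and log2 of the summed signal of 8 alveolar and 8 airway epithelial genes, in each heart (symbols as by replicate, filled for extended-range arrays; each panel has its own axis). WT 1 and TG 2 are the 2 highest hearts for both keratins, WT 1 is highest for the alveolar sum and TG 2 for the airway sum.

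Without WT 1 and TG 2, the log2 difference was -0.16 for Krt19 and -0.06 and 0.0021 for the Krt8 probes, over 2 hearts per group. Those of Wt1 (-0.30), Bnc1 (-0.34), Upk1b (-0.28) and Msln (-0.58) were also negative, and limma called 0 of 13 probes, and 0 of all 20000 over these 4 hearts. Of the 11 probes, 6 then did not overlap, Wt1, Bnc1, Upk1b, Msln and Krt19 with both TG-PKR1 hearts lower and Upk3b with both higher. With so few hearts this is not rare, as 51.0% of the 20000 probes did not overlap, 21.9% with the TG-PKR1 hearts lower and 29.1% with them higher. By direction, 5 of the 11 lay lower and 1 higher.

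Pdgfra, the receptor of platelet-derived growth factor A, is expressed in fibroblasts and their epicardial precursors. The first probe, on chromosome 5 from 75479560 to 75479619, has 10 spots per array. It gave 8.49, 8.82 and 9.18 in WT 1, 2 and 3 and 8.49, 9.07 and 8.88 in TG 1, 2 and 3. The groups covered nearly the same range, from WT 1 and TG 1 at the low end to WT 3 at the high end. The difference was -0.02 (SE 0.223, limma adjusted p = 1.0). It was 0.15 without WT 3 and 0.14 without TG 1. The other probe, from 75445285 to 75445344, was well above background on 3 of 3 TG-PKR1 arrays and 0 of 3 WT arrays. Its signals were 5.87, 6.18 and 5.93 in WT 1, 2 and 3 and 6.47, 6.15 and 6.10 in TG 1, 2 and 3. WT 2 lay above TG 2 and TG 3, so the groups overlapped in spite of the marks. Against the floor of the WT arrays, the TG-PKR1 mean of 6.24 was 1.15-fold higher, a value that carries no sampling error. The measured ratio was 1.18, with a 95% confidence interval of limma from 0.94 to 1.49 (limma p adjusted over all probes = 1.0). The 2 Pdgfra probes therefore did not give the same sign, and the dim one turned to -0.29 with 75th percentile scaling.

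The transcription factors and the surface and keratin genes were compared as a description, without a test, and no clear parting was seen. The median difference was -0.01 over the 4 transcription factors and -0.14 over the 5 surface and keratin genes. Within the latter, the mean difference was -0.21 for Upk3b, Upk1b and Msln, with a pooled SD between hearts of 0.155. For Krt8 and Krt19 it was -0.09, with a pooled SD of 0.245. Per heart, the median of the transcription factors relative to each gene's mean was -0.03, 0.06 and -0.01 in WT 1, 2 and 3 and -0.20, 0.27 and -0.05 in TG 1, 2 and 3. The median of the surface and keratin genes was 0.30, 0.01 and -0.10 in WT 1, 2 and 3 and -0.16, 0.20 and -0.08 in TG 1, 2 and 3. In both classes TG 2 was high and TG 1 the lowest heart, and WT 1 was highest for surface and keratin genes. The first median minus the second was -0.33, 0.05 and 0.09 in WT 1, 2 and 3 and -0.04, 0.07 and 0.03 in TG 1, 2 and 3. The groups overlapped in this measure too, since WT 1 alone was low. Its difference between the groups was 0.08, with a pooled SD between hearts of 0.168, and it was 0.38 within the extended-range arrays and -0.11 within the single-scan arrays.

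The extremes of the 11 probes were shared out unevenly over the hearts. Whether the other probes on the arrays were shared out in the same way was not tested, so the counts are a description. Both Krt8 probes measure the same gene and are counted separately. TG 1 was the lowest heart for 6 of 11 probes (Wt1, Tbx18, Bnc1, Upk1b, Msln and Pdgfra) and the highest for 0. TG 3 was lowest for Krt19 and both Krt8 probes. TG 2 was highest for the transcription factors Wt1, Tbx18 and Tcf21, and WT 1 for Upk3b, Krt19 and both Krt8 probes. WT 3 was highest for Bnc1, Upk1b and Pdgfra and lowest for Tcf21 and Upk3b, and WT 2 was highest for Msln.

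**Figure D4:**
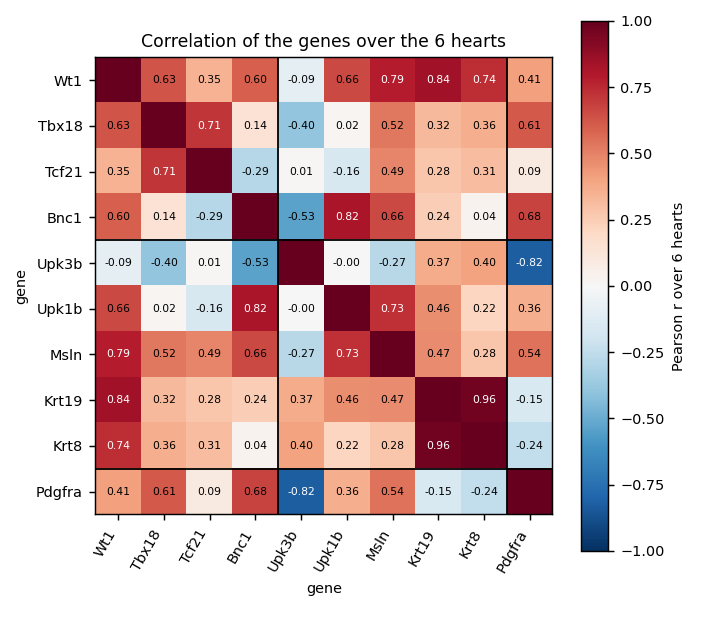
Pearson correlation of each pair of genes over the 6 hearts (1 probe per gene, WT and TG-PKR1 hearts together, red positive and blue negative, black lines between transcription factors, surface and keratin genes and Pdgfra). Krt19 and Krt8 have the highest value, 0.96, and Upk3b and Pdgfra the lowest, -0.82.

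Over the 6 hearts the genes did not move as 1 block. Of 45 pairs, 10 had a negative Pearson r, and the median r was 0.47 over the 6 pairs of transcription factors, 0.39 over the 10 pairs of surface and keratin genes and 0.32 over the 29 others. Krt19 and Krt8 were the most alike, with a Pearson r of 0.96 (exact permutation p = 0.0111, adjusted over 45 pairs 0.469) and a Spearman rho of 0.94 (exact permutation p = 0.0167, adjusted 0.612). Leaving out the 2 hearts farthest from the median of Krt19, WT 1 and TG 2, gave an r of 0.78. Upk3b ran against Pdgfra with an r of -0.82 (exact permutation p = 0.0417, adjusted 0.469) and a rho of -0.71 (exact permutation p = 0.136, adjusted 0.612), and r was -0.67 without the 2 hearts farthest from the median. After adjustment 0 of 45 pairs passed 0.05, and 4 did before it. Within the extended-range arrays Upk3b differed by -0.75 and Pdgfra by 0.48, and within the single-scan arrays by 0.38 and -0.51. The signs of both thus differed between the scan modes, and the cause was not tested. WT 1 was the only WT heart on extended-range arrays, and TG 1 the only TG-PKR1 heart on single-scan arrays.

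For each of the 10 probes well above background on 6 of 6 arrays, the 3 genes most alike over the 6 hearts were looked up among the 20000 probes. Those most like Upk1b were Lrp2 (Pearson r 0.994), C1qtnf12 (0.981) and Lrrc8d (0.974), those most like Msln were Iffo1 (0.996), Tmed8 (0.990) and Slc52a2 (0.983), and those most like Wt1 were Ing5 (0.996), Ddx58 (0.992) and Mansc1 (0.992). The first Tbx18 probe was most like Nr2c2, Jade3 and 6820402I19Rik, Tcf21 most like Mc4r, Usp34 and Epha1, and Upk3b most like Spg21, Slc6a17 and BC023892. Krt19 was most like Cxcr3, Dipk1a and Dus2, and Pdgfra most like Plxnc1, Vti1b and Cmc1. Pearson r lay between 0.974 and 0.998 for all of the genes named, and 0 of them were members. They are the best of 20000 probes over 6 hearts and are given as a description.

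A wider list of 32 epicardial and mesothelial genes had 27 genes among the 20000, and limma called 0 of them in either direction. The mean was lower in TG-PKR1 hearts for 19 and higher for 8, where 41.8% of the 20000 were lower, and the median difference was -0.12. Of the 27, 2 had all TG-PKR1 hearts below all WT hearts, Lrrn4 and Muc16, both membrane proteins of mesothelium, and 0 had them above, where 2.73% of the 20000 lay below and 2.68% above. Lrrn4 was 7.54, 7.59 and 7.75 in WT 1, 2 and 3 and 7.19, 7.43 and 7.53 in TG 1, 2 and 3, a difference of -0.24 (limma adjusted p = 1.0). Muc16 was 9.02, 8.91 and 8.93 in WT 1, 2 and 3 and 8.26, 8.88 and 8.81 in TG 1, 2 and 3, a difference of -0.30 (limma adjusted p = 1.0). As for Upk1b and Msln, TG 1 was the lowest heart for both. The largest differences were those of Slpi, a secreted protease inhibitor (-0.98), the complement gene C3 (-0.54), the keratin gene Krt7 (-0.46) and the matrix gene Efemp1 (-0.45), each with groups that overlapped and a limma adjusted p of 1.0. Per heart, the list median relative to each gene's mean was 0.05 to 0.09 in WT and -0.17 to 0.00 in TG-PKR1 hearts. Adipocyte genes were lower too, with a list median per heart of 0.66 to 0.82 in WT and -1.11 to -0.41 in TG-PKR1 hearts. The part of adipose tissue in these values was not tested.

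Of 20 cardiac fibroblast genes, 19 were among the 20000 and limma called 0. Their mean was lower in TG-PKR1 hearts for 13 and higher for 6, with a median difference of -0.08. The collagen receptor Ddr2 was the 1 of 19 without overlap, where 5.41% of the 20000 did not overlap, and WT 2 and TG 2 lay next to each other. Its signals were 9.79, 10.24 and 10.08 in WT 1, 2 and 3 and 10.45, 10.25 and 10.59 in TG 1, 2 and 3 (difference 0.39, limma adjusted p = 1.0). Dpep1, a membrane peptidase, was 7.01 in TG 1 and 9.90 to 10.46 in the other 5 hearts.

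**Figure D5:**
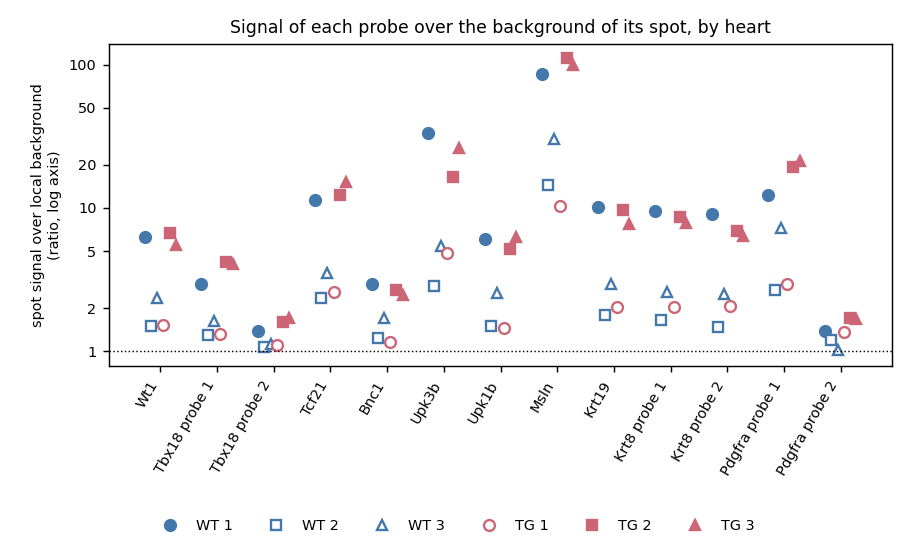
Spot signal divided by the local background of the spot (ratio, log axis) for each probe and heart, symbols as by replicate, filled for extended-range arrays and open for single scans. For each of the 13 probes the ratio is lowest on a single-scan array, and the ratio of Wt1 runs from 1.49 to 6.73.

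The signal of these genes over background differed between the scan modes. The modes were run on different hearts and slides, so their parts cannot be told apart. Over the hearts, the ratio of signal to local background ran from 1.49 to 6.73 for Wt1, from 1.15 to 2.97 for Bnc1, from 1.46 to 6.29 for Upk1b and from 10.4 to 111 for Msln. The lowest ratio was on a single-scan array in each case. Since no background was subtracted in these values, differences of dim genes such as Bnc1, Tbx18 and Upk1b are compressed on this scale.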

How the data were processed

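Single-dye Agilent arrays measured the hearts of 3 WT and 3 TG-PKR1 mice. The authors deposited fluorescence intensity values for every spot, from Agilent Feature Extraction 9.5.1.1, with no normalization across arrays. A second file deposited by the authors holds normalized log2 values, for which LOWESS against a median profile was followed by averaging of repeated probes and a filter for high medians. Groups came from the labels, replicates were numbered in accession order, and each of the 6 value columns was matched.

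From the spots, control and outlier spots were removed and the median signal was put on a log2 scale. Each array was fitted by loess to the median of all arrays (span 0.3, 4 iterations), the spots of every probe were averaged, and the brightest 20000 by median entered limma 3.58.1 (lmFit and eBayes, R 4.3.3, with the data.table package, version 1.17.8). Benjamini-Hochberg adjustment covered all probes tested. Members outside the 20000 were read from the same fit over 41174 probes. Permutation tests were exact and two-sided (SciPy 1.17.1, pandas 2.3.3, Python 3.11.15). The significance analysis of microarrays named in the methods was not run. The limma step alone was tested on simulated data, with 2 log2 units added to 200 probes. That does not bear on differences as small as those of the members.

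For class values, the probe marked above background on most arrays stood for its gene. All members were named. The genes most like Krt8 over the hearts are not reported here. Genes of the wider lists were named if called or without overlap, or, for epicardial genes, if among the 4 largest differences on 6 detected arrays. Genes without overlap, Dpep1 and the lung genes were picked after their values were seen. The members and lists were chosen with earlier results of these data known. A fold against the floor took, per dim array, the higher of the lowest signal well above background and the probe's own. Positions are those of mm8 in the files, and exon or UTR annotation was not used here. The number of arrays limits the precision, and p-values measure only the spread between these hearts.

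Alternatives replaced the signal, the normalization or both, and other choices 1 at a time. Signal alternatives were the processed signal at the 75th percentile, the mean signal, normexp (offset 50) followed by quantile normalization, and outlier spots kept. Loess was replaced by quantile normalization or by the 75th percentile, and the 20000 probes by all probes or by those detected on 3 or more arrays. The deposited log2 values, eBayes with trend and robust settings, scan mode as a block, a threshold of 0.1, other genes or probes in the class values and single hearts removed were also tried.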

Additional observations from a re-analysis of the deposited data

How the results depend on the processing

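The 6 arrays, and for Bnc1, Tbx18 and the dim probes a signal close to background, limit the precision. limma called 0 member probes in every setting run, but in 10 of the 19 alternative settings it called 0 probes of any gene, and in the other 9 it called 2 to 33. The lowest adjusted p of a member over all of them was 0.261, for Msln without both hearts that carried lung transcripts. Loess on the median profile, the within-scan-mode and within-slide values and leaving out both of those hearts were chosen after seeing the data. Slide as a random block could not be fitted, since 1 of 5 slides held more than 1 array. No paired analysis was possible because only WT 2 and TG 1 are tied to each other in the labels, by their slide.

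Of 94 class values and counts, 89 stayed the same or within the spread between hearts and 5 moved. Some of the 89 could not move. Testing all probes or those detected on 3 or more arrays, and the eBayes settings, leave class values unchanged by construction. The counts of called members were 0 throughout and have no spread between hearts. The median difference of the transcription factors moved from -0.01 to -0.19 with 75th percentile scaling, -0.26 within the single-scan arrays and -0.30 on the slide of both groups. The transcription factor minus surface and keratin difference moved from 0.08 to 0.38 within the extended-range arrays and -0.11 within the single-scan arrays. When single hearts were left out, the transcription factor median ran from -0.14 to 0.12, that of the surface and keratin genes from -0.27 to -0.02, their difference from -0.05 to 0.16 and the count of called members stayed at 0. Of 244 limma values of single probes, 227 kept their sign and 17 changed it. The 227 include the values for all probes, for the detection filter and for the eBayes settings. These leave each difference unchanged, so their signs had to be kept. Of 39 values within a scan mode or slide, 27 kept their sign and 12 changed it, and 16 moved by more than the spread between hearts. The cause was not tested. The sign changed for the first Tbx18 probe with 75th percentile scaling (-0.12), without TG 2 (-0.0099) and without both WT 1 and TG 2 (-0.031). It changed for the dim Tbx18 probe with the scaled processed signal (-0.049), 75th percentile scaling (-0.53) and without TG 3 (-0.025), with 0.059 as the highest value when a heart was left out. For Upk3b it changed without WT 1 (0.27), TG 2 (0.063) or both (0.38). For the first Krt8 probe it changed without WT 1 (0.093) or TG 3 (0.073), and the value was -0.20 without TG 2. For the other Krt8 probe it changed without WT 1 (0.079) and without both WT 1 and TG 2 (0.0021). For the first Pdgfra probe it changed with 75th percentile scaling (0.025) and without WT 3 (0.15) or TG 1 (0.14), and for the dim one with 75th percentile scaling (-0.29), while the scaled processed signal gave 1.62. Scaling moved the median of the 20000 probes tested by under 0.1 in each setting. The dim Tbx18 and Pdgfra probes were not among the 20000 of the main fit, so that median does not bear on them. Upk1b stayed between -0.49 and -0.19 over all of these settings. Its groups did not overlap, so leaving out hearts could not change its sign. Wt1, Bnc1, Msln and Krt19 kept a negative and Tcf21 a positive sign in the limma settings, while Tcf21 was -0.34 on the slide of both groups.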
